A study of Mus musculus with 10 samples.

Results

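Telomerase and shelterin are represented here by 10 genes, taken by their gene names from the 55487 rows of a count table of mouse ovaries: Tert and Dkc1 of telomerase, Terf1, Terf2, Terf2ip, Tinf2, Acd, Pot1a and Pot1b of shelterin, and Ctc1 of the CST complex. Whole ovaries of mice on a C57BL/6J background were compared in 3 groups. The Control group held 4 ovaries from mice aged 8 weeks. The Aged group held 3 ovaries from mice whose age the labels give as 11 months and the methods as 10 months. The Aged+CF group held 3 ovaries from mice of the same age that were given CEFFE, a cell-free liquid extract of adipose tissue, as 200 μL at 3 μg/μL of protein. By the methods it was injected into the tail vein every 2 days for 2 weeks, and the Control and Aged groups received saline. All mice of the 3 groups, controls included, had been given 10 IU of PMSG, a gonadotropin that stimulates follicle growth, 48 h before the ovaries were taken. The age model is natural ageing without a transgene, and the extract came from a company. The methods call the libraries biological replicates but the labels do not tie each one to its own animal, so the p-values measure the spread between these libraries.

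Telomeres are the repeat-covered ends of chromosomes, and they shorten when cells divide unless they are extended. Telomerase extends them: Tert is its reverse transcriptase and Dkc1, dyskerin, holds the RNA template in a stable particle. Shelterin coats the repeats and hides them from DNA damage signalling, and the CST complex, of which Ctc1 is the large subunit, limits telomerase and brings DNA polymerase alpha and primase to fill in the complementary strand. In the ovary, telomerase activity is known from granulosa cells of growing follicles and from early oocytes, and meiotic chromosomes are anchored to the nuclear envelope by their telomeres.

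The 10 genes lay on 8 chromosomes of the mouse genome GRCm38. Tert lies at chr13:73626911-73649843, Dkc1 at chrX:75095854-75109777, Ctc1 at chr11:69015911-69036473, Pot1a at chr6:25743737-25809246, Pot1b at chr17:55651951-55712628, Terf1 at chr1:15805646-15844052 and Tinf2 at chr14:55674689-55681820. The remaining 3 share chromosome 8, with Acd at chr8:105695860-105701102, Terf2 at chr8:107069400-107096547 and Terf2ip at chr8:112011398-112020528. The RefSeq table of GRCm38.p6 start sites held 9 of the 10, without Terf1. The 250 bases before the start are shown for Tert and Ctc1, whose levels differed most between Aged and Control, and for the paralogs Pot1a and Pot1b, whose ratio is compared further on. Their windows are chr13:73626661-73626910 on the plus strand for Tert, chr11:69015661-69015910 on the plus strand for Ctc1, chr6:25809219-25809468 on the minus strand for Pot1a and chr17:55712637-55712886 on the minus strand for Pot1b. Each is read 5′ to 3′ along the gene, and capitals mark matches, on either strand, to the E-box CACGTG, the GC box GGGCGG, the cAMP response element TGACGTCA, the ETS core CCGGAAG or the telomere repeat TTAGGG.
Tert: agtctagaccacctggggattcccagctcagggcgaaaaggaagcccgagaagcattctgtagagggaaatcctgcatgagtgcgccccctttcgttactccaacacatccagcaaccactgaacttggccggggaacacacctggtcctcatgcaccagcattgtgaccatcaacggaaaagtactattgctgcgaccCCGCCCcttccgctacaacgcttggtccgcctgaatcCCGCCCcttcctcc
Ctc1: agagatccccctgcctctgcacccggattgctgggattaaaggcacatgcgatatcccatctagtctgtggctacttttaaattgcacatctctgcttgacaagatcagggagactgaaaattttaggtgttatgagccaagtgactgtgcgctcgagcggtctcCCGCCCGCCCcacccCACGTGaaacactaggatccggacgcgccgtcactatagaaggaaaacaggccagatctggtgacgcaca
Pot1a: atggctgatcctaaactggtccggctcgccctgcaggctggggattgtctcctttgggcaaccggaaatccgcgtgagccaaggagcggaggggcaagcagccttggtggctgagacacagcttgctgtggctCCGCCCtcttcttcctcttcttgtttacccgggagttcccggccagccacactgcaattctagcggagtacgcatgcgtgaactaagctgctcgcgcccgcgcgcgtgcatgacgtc
Pot1b: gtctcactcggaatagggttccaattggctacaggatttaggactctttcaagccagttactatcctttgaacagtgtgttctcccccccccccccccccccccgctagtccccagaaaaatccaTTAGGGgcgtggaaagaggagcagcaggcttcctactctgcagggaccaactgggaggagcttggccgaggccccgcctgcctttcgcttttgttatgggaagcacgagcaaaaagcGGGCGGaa

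The Tert window held 2 GC boxes, which began 51 and 14 bases before the start. The Ctc1 window held 2 GC boxes that overlap each other and, 70 bases before the start, an E-box. The Pot1a window had a single GC box 117 bases before the start, whereas the Pot1b window had one 8 bases before it and a telomere repeat at 125 bases. The GC box was present in 4 of the 9 windows and in 32.7% of all 32851 windows of this length. The E-box was present in 1 of 9 against 6.02%, and the telomere repeat in 1 of 9 against 9.32%. Tinf2 was the remaining window with a match: it carried the cAMP response element, found in 1.55% of all windows, and the ETS core, found in 6.91%. These matches describe letters in a window, and no binding was measured.

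The libraries held between 15761789 and 21318254 counts, with medians of 17396226 for Control, 17306694 for Aged and 17450630 for Aged+CF. CPM stands for counts per 1000000 reads of the TMM-scaled library, and values are listed for Control ovaries 31, 32, 33 and 34, Aged ovaries 31, 33 and 34, and Aged+CF ovaries 30, 32 and 34. The defining markers of the ovary were present. The summed level of 18 oocyte markers was 564 to 754 CPM in Control, 71.0 to 192 CPM in Aged and 258 to 377 CPM in Aged+CF. The summed level of 21 cell division markers was 1027 to 1406 CPM, 220 to 571 CPM and 605 to 844 CPM in the same order, and that of 10 granulosa markers was 4610 to 7714 CPM, 3375 to 3967 CPM and 2565 to 4435 CPM. Aged ovary 34 stood apart: it had the lowest sums of the oocyte and cell division markers, the zona pellucida gene Zp3 was at 0.937 CPM there against 12.6 and 14.5 CPM in the other Aged ovaries, and it had the highest sums of immune (414 CPM) and smooth muscle (2428 CPM) markers of all 10 ovaries. Some results are therefore also given without it.

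All 10 genes passed the filter on low counts. The weakest value of any of them was 107 counts, for Tert in Aged ovary 33. In Aged vs Control, 8 of the 10 fitted log2 fold changes were negative, with a median of -0.24 against -0.00053 over all 18956 genes tested. The largest decreases were those of Tert (log2 fold change -0.58) and Ctc1 (-0.57), both just short of the 1.5-fold limit of 0.58 (0.585 before rounding), so that 0 of 10 genes were called at an adjusted p under 0.05 with at least 1.5-fold change, where 11.1% of all genes were, and 0 of 10 at an unadjusted p with the fold limit, where 18.2% were. Without the fold limit, Ctc1 and Terf1 passed at the adjusted p, 2 of 10 against 15.4% of all genes. At an unadjusted p under 0.05 without the fold limit 5 of 10 passed, Tert, Dkc1, Terf1, Pot1a and Ctc1, all lower, against 15.9% of all genes lower and 31.6% in either direction. DESeq2 at the adjusted p without the fold limit passed 4, Tert, Terf1, Pot1a and Ctc1, against 22.6% of all genes to which it gave an adjusted p, and with the fold limit 0, against 14.6%. A whole ovary mixes its cell types, so fewer cells of a type and less RNA per cell cannot be told apart in any of these values.

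**Figure D1:**
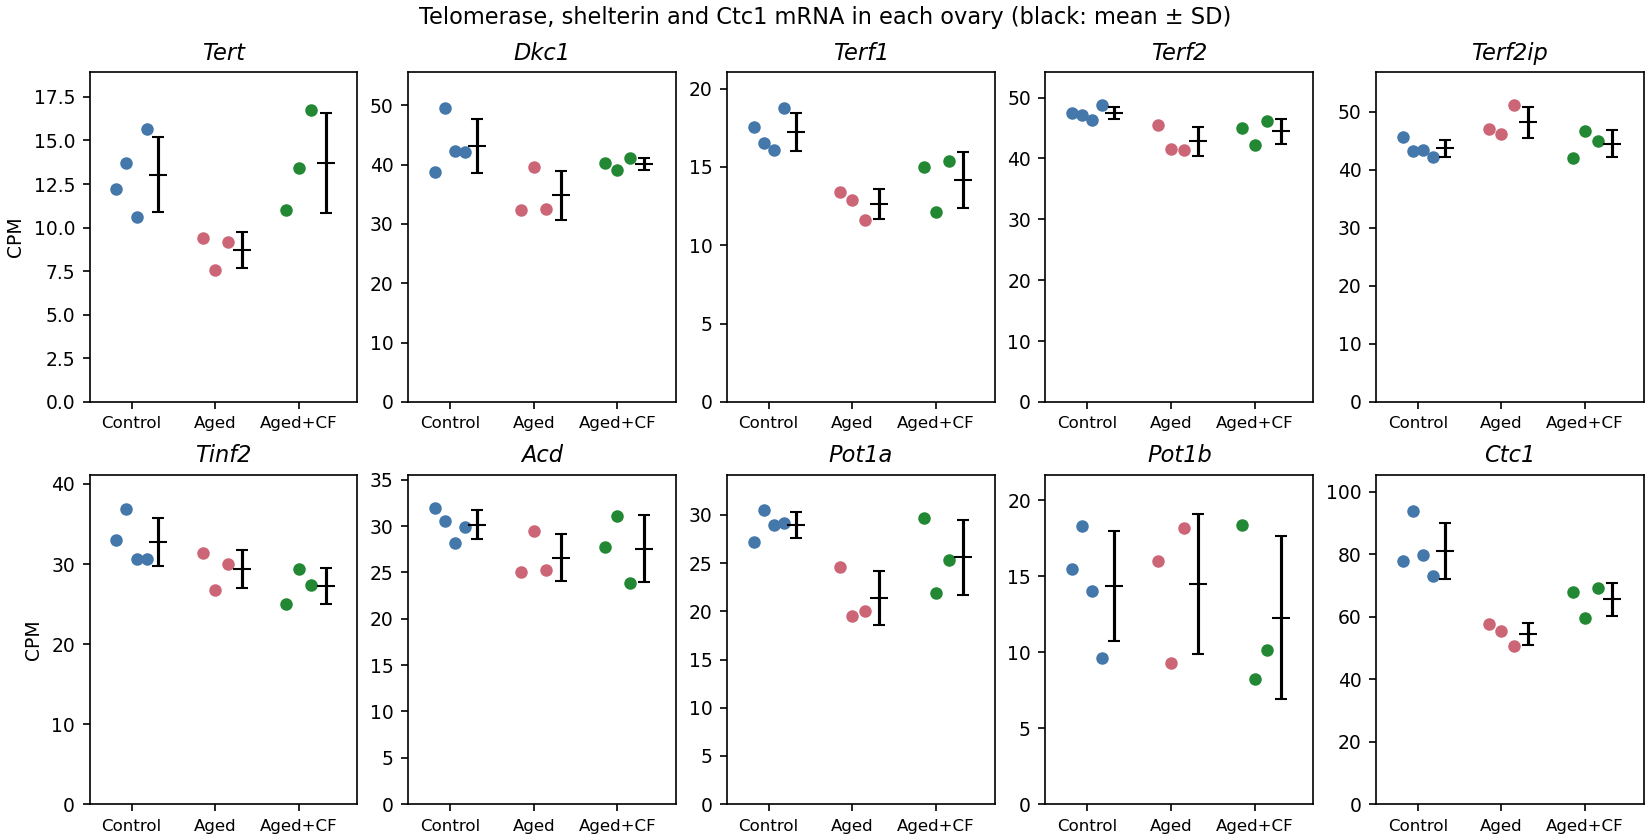
Level of each of the 10 genes in each ovary in CPM (linear axes from 0), by group, with the group mean and SD in black (n = 4, 3 and 3). All 3 Aged ovaries sit below all 4 Control ovaries for Tert, Terf1, Terf2, Pot1a and Ctc1 and above them for Terf2ip, and Pot1b spreads from 8.27 to 18.4 CPM without order by group.

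Tert, the catalytic subunit, was at 12.2, 13.7, 10.6 and 15.6 CPM in Control, at 9.42, 7.55 and 9.15 CPM in Aged and at 11.0, 13.4 and 16.7 CPM in Aged+CF. The Aged ovaries were thus the lowest 3 of the 10, without overlap with either of the other groups, and the Control and Aged+CF ovaries overlapped. The means were 13.0 ± 2.15 CPM (SD, n = 4) in Control, 8.71 ± 1.01 CPM (SD, n = 3) in Aged and 13.7 ± 2.87 CPM (SD, n = 3) in Aged+CF. Aged vs Control gave a log2 fold change of -0.58 ± 0.19 (SE), with an adjusted p of 0.064 from edgeR's quasi-likelihood test. Aged+CF vs Aged gave 0.66 ± 0.20, with an unadjusted p of 0.0084 and an adjusted p of 0.19 from edgeR. Tert was the 1 gene of the 10 that reached the fold limit together with an unadjusted p under 0.05 in this comparison, where 7.96% of all genes did and 3.91% did so upwards. The call was lost without Aged ovary 33 (0.56) or without Aged+CF ovary 34 (0.48), where the fitted change lay under the fold limit. Without Aged ovary 34, Tert stood at -0.58 in Aged vs Control and at 0.68 in Aged+CF vs Aged. Aged+CF vs Control differed by 0.08 ± 0.18, and 2 SE on either side of it run from -0.29 to 0.45.

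Dkc1, which binds the telomerase RNA and also guides pseudouridylation of ribosomal RNA, was at 38.8, 49.6, 42.2 and 42.0 CPM in Control, at 32.3, 39.6 and 32.6 CPM in Aged and at 40.3, 39.0 and 41.1 CPM in Aged+CF. Aged ovary 33 lay within the Control range and the other Aged ovaries lay below it. Between Aged and Control Dkc1 differed by a log2 fold change of -0.31 ± 0.11, with an adjusted p of 0.090 from edgeR, and between Aged+CF and Aged by 0.20 ± 0.12, with an adjusted p of 0.42. Dkc1 had the narrowest spread of the 10 genes among the Aged+CF ovaries, with a coefficient of variation of 2.60%. The telomerase RNA gene Terc was below the filter, with 1 to 6 counts in each library. At that depth no difference of Terc was detectable. Whether the libraries were made from poly(A) RNA, which a transcript of this kind lacks, is not given in the sources used here.

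The duplex repeats are bound by Terf1 and Terf2, and Terf2ip, also called Rap1, binds Terf2. Terf1 was at 17.6, 16.5, 16.1 and 18.8 CPM in Control, at 13.4, 12.9 and 11.6 CPM in Aged and at 14.96, 12.1 and 15.4 CPM in Aged+CF. All Aged ovaries lay under all Control ovaries, and so did all Aged+CF ovaries. The log2 fold change of Terf1 was -0.45 ± 0.13 in Aged vs Control, with an adjusted p of 0.043 from edgeR. That call depended on single ovaries: leaving out single ovaries gave adjusted p from 0.039 to 0.11, and it stayed under 0.05 in this set only without Aged+CF ovary 32. Without Aged ovary 34 the log2 fold change of Terf1 was -0.35. Aged+CF vs Aged gave 0.16 ± 0.14 for Terf1, with an adjusted p of 0.57.

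Terf2, the paralog of Terf1 that protects ends from fusion, was the steadiest of the 10 genes among Control ovaries, at 47.5, 47.1, 46.3 and 48.8 CPM. It was at 45.6, 41.6 and 41.4 CPM in Aged and at 45.1, 42.2 and 46.2 CPM in Aged+CF. Both groups of older ovaries lay wholly below Control, by a log2 fold change of -0.15 ± 0.08 in Aged, with an adjusted p of 0.23, and of -0.09 ± 0.08 in Aged+CF, with an adjusted p of 0.62. Terf2ip was at 45.8, 43.3, 43.5 and 42.3 CPM in Control, at 47.1, 46.3 and 51.2 CPM in Aged and at 42.0, 46.6 and 45.0 CPM in Aged+CF. It was thus the gene whose Aged ovaries all lay above Control, with a log2 fold change of 0.14 ± 0.08 and an adjusted p of 0.26. A non-overlap of this kind was seen in 6 of the 10 genes in Aged vs Control (5 lower, 1 higher), against 27.5% of all genes (15.6% lower, 11.8% higher).

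Tinf2, also called TIN2, bridges the duplex-binding proteins to Acd, also called TPP1, which recruits telomerase and carries Pot1. Tinf2 was at 33.03, 36.8, 30.6 and 30.6 CPM in Control, at 31.4, 26.8 and 30.1 CPM in Aged and at 25.0, 29.4 and 27.4 CPM in Aged+CF. The Aged+CF ovaries lay below all Control ovaries, by a log2 fold change of -0.26 ± 0.11 and an adjusted p of 0.32, while Aged overlapped both. Acd was at 31.9, 30.5, 28.1 and 29.9 CPM in Control, at 25.0, 29.5 and 25.3 CPM in Aged and at 27.7, 31.1 and 23.9 CPM in Aged+CF, and its 3 groups overlapped. No comparison of Tinf2 or Acd passed at an adjusted p, whose lowest value was 0.32. Counting is not stated to use strand, and both genes share exons with a gene on the opposite strand: 1540 bases of Tinf2 (31.2% of its exonic length) with Gmpr2 and 1208 bases of Acd (33.3%) with Carmil2. Gmpr2 had 3595 counts over the 10 ovaries and Carmil2 had 554. Smaller overlaps on the opposite strand were 108 bases of Terf2ip (2.18%) with Gm6793, which had 13747 counts, and 45 bases of Dkc1 (1.09%) with Mpp1, which had 7719. Reads in the shared parts of Tinf2, Acd, Terf2ip and Dkc1 are therefore uncertain.

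Mice carry a pair of Pot1 genes, of which Pot1a represses DNA damage signalling and Pot1b limits the length of the 3′ overhang. Pot1a was at 27.1, 30.5, 29.0 and 29.2 CPM in Control, at 24.6, 19.5 and 20.1 CPM in Aged and at 29.6, 21.9 and 25.3 CPM in Aged+CF. All Aged ovaries lay below Control, and the Aged+CF ovaries overlapped both groups. Pot1a differed between Aged and Control by a log2 fold change of -0.44 ± 0.13, with an adjusted p of 0.051 from edgeR, and between Aged+CF and Aged by 0.26 ± 0.14, with an adjusted p of 0.38. Without Aged ovary 34 the first of these was -0.35.

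Pot1b was the most variable of the 10 genes. It was at 15.5, 18.3, 14.0 and 9.65 CPM in Control, at 16.0, 9.31 and 18.2 CPM in Aged and at 18.4, 8.27 and 10.2 CPM in Aged+CF. Every group held ovaries under 10 CPM and ovaries above 15 CPM, so the spread lay within groups: the coefficient of variation was 25.2%, 31.9% and 43.9% in Control, Aged and Aged+CF, the widest of the 10 genes in each. The log2 fold change in Aged vs Control was 0.02 ± 0.33, and 2 SE on either side run from -0.64 to 0.67, so a change of the size seen for Pot1a was not detectable for Pot1b. Aged+CF vs Aged gave -0.24 ± 0.35 for Pot1b.

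The ratio of Pot1b to Pot1a inside each library needs no scaling between libraries. From the deposited FPKM the Control ovaries had ratios of 0.973, 1.03, 0.8287 and 0.564, the Aged ovaries of 1.11, 0.814 and 1.55, and the Aged+CF ovaries of 1.06, 0.646 and 0.686. By FPKM, Pot1b exceeded Pot1a in 1 Control, 2 Aged and 1 Aged+CF ovaries, and the 3 groups overlapped. Per exonic length, which counts each exonic base once, it did so in 0 Control, 2 Aged and 1 Aged+CF ovaries, and the ratio in Control ovary 32 was 0.989. On the log2 scale the means were -0.27 ± 0.39 (SD, n = 4), 0.16 ± 0.46 (SD, n = 3) and -0.36 ± 0.39 (SD, n = 3). The difference of 0.44 between Aged and Control had a two-sided exact permutation p of 0.29 (0.43 adjusted over 3 comparisons). With both sides counted, 4 against 3 ovaries cannot bring this p under 0.05, so the test could not call a difference. The difference of -0.53 between Aged+CF and Aged had an exact permutation p of 0.20 (0.43 adjusted), where 3 against 3 cannot go below 0.10. Aged+CF and Control differed by -0.09, with an exact permutation p of 0.80 (0.80 adjusted).

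**Figure D2:**
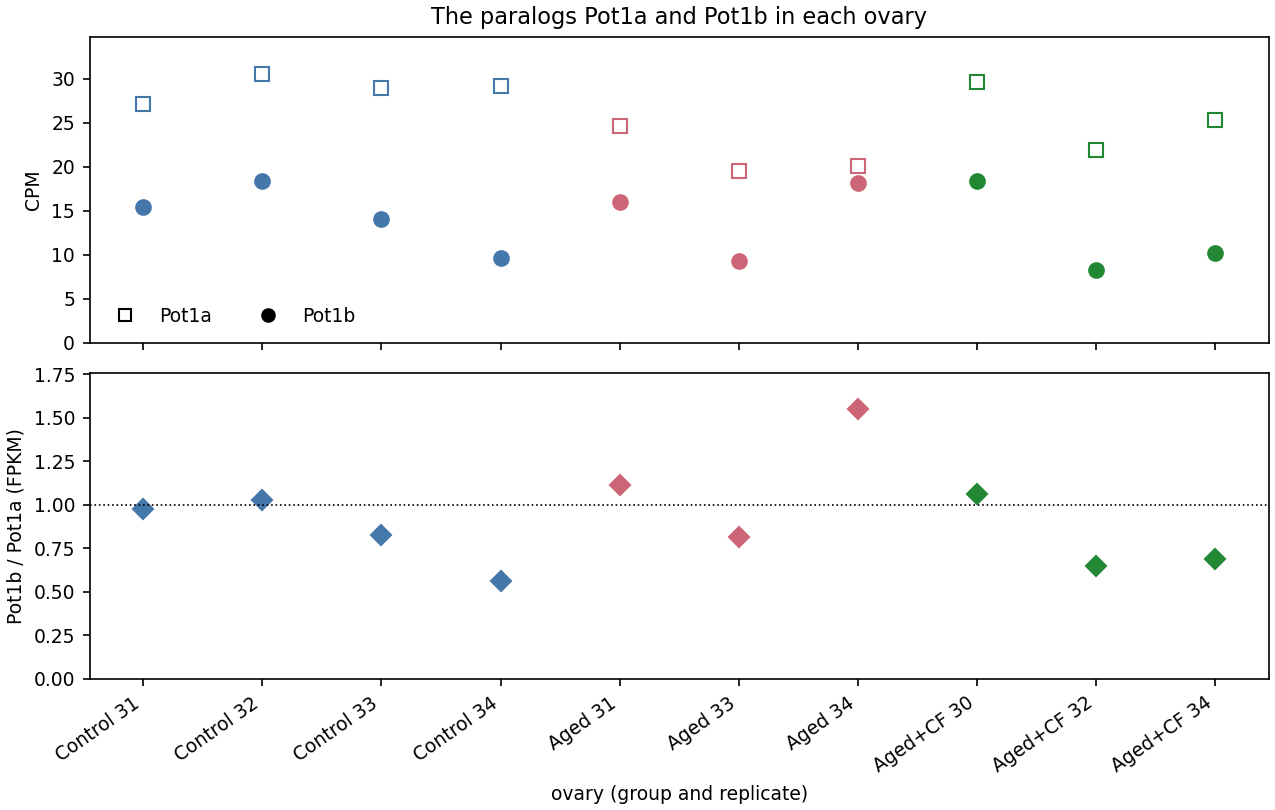
Upper panel, CPM of Pot1a (open squares) and Pot1b (filled circles) in each of the 10 ovaries, coloured by group; lower panel, ratio of their FPKM in the same ovaries, with a dotted line at equal FPKM. Pot1a lies above Pot1b in CPM in every ovary, and the ratio runs from 0.564 in Control ovary 34 to 1.55 in Aged ovary 34.

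Ctc1, the large subunit of CST, had the smallest p of the 10 genes in Aged vs Control. It was at 78.0, 93.8, 79.7 and 73.0 CPM in Control, at 57.7, 55.3 and 50.5 CPM in Aged and at 68.1, 59.5 and 69.1 CPM in Aged+CF. The 3 groups did not overlap: every Aged+CF ovary lay between the Aged and the Control ovaries. The means were 81.1 ± 8.93 CPM (SD, n = 4), 54.5 ± 3.65 CPM (SD, n = 3) and 65.6 ± 5.28 CPM (SD, n = 3). Ctc1 was lower in Aged than in Control by a log2 fold change of -0.57 ± 0.11, with an adjusted p of 0.011 from edgeR. Leaving out single ovaries kept the adjusted p of Ctc1 between 0.014 and 0.029, and Ctc1 also reached the fold limit without Control ovary 31 (-0.59), Control ovary 34 (-0.62) or Aged ovary 31 (-0.59). Without Aged ovary 34 it was -0.48. Aged+CF vs Aged gave 0.27 ± 0.11 for Ctc1, with an unadjusted p of 0.040 and an adjusted p of 0.29 from edgeR, and Aged+CF vs Control gave -0.31 ± 0.11, with an adjusted p of 0.24.

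**Figure D3:**
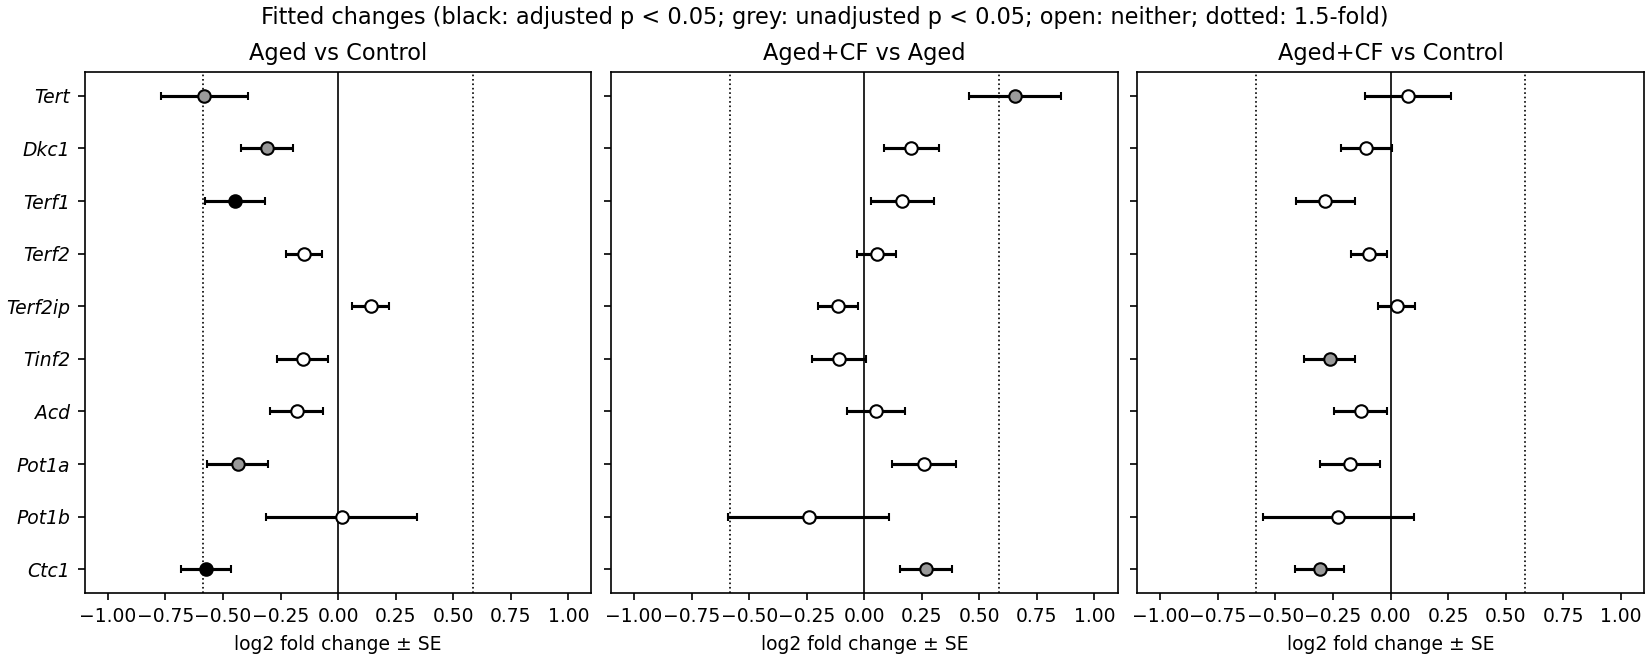
Fitted log2 fold change with its SE for the 10 genes in the 3 comparisons; black points passed an adjusted p under 0.05, grey points an unadjusted p under 0.05, open points neither, and dotted lines mark 1.5-fold. Terf1 and Ctc1 are black in Aged vs Control, Tert alone lies past 1.5-fold in Aged+CF vs Aged, and the SE of Pot1b (0.33 to 0.35) is the widest.

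Between Aged+CF and Aged no gene of the 10 was called at the adjusted p with the fold limit, where 1 of all 18956 genes was (0.00528%). DESeq2 also called 0 of the 10, where it called 2.77% of the genes to which it gave an adjusted p, and 0 without the fold limit, against 4.79%. Without the fold limit the unadjusted p of edgeR passed 2, Tert and Ctc1, both higher, against 8.06% of all genes higher. The fitted changes had a median of 0.11 against -0.02 over all genes, and 7 of 10 were positive. The same 2 genes were those without overlap between the groups, against 10.2% of all genes higher and 18.6% in either direction. This comparison and Aged vs Control share the 3 Aged ovaries, so a low value in them lowers the one and raises the other. Aged+CF vs Control, which does not use the Aged ovaries as a group, left 0 of 10 called with the fold limit at the adjusted p (0.179% of all genes) and 0 at the unadjusted p (7.69%). DESeq2 called 0 of the 10 there with the fold limit, against 2.79% of all genes with an adjusted p, and 0 without it, against 3.88%. Ctc1 and Tinf2, both lower, were the 2 genes with an unadjusted p under 0.05 there, against 7.89% of all genes lower. The Aged+CF ovaries did not overlap Control for Terf1, Terf2, Tinf2 and Ctc1, 4 of 10, all lower, against 12.2% of all genes lower and 21.9% in either direction.

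The sums of the oocyte and cell division markers were lowest in the Aged ovaries, as were Tert and Ctc1. In Aged vs Control 6.06% of all genes were lower at the adjusted p with the fold limit. Of the 18 oocyte markers 13 were, with a median log2 fold change of -2.44. Of the 21 cell division markers 16 were, with a median of -1.52. Of either list 0 passed this rule in Aged+CF vs Aged, where 1 of all 18956 genes did (0.00528%). The medians were 1.11 and 0.70, and all 18 and all 21 fitted changes were positive. The Aged+CF ovaries lay wholly above Aged for 11 of the 18 and 10 of the 21, against 10.2% of all genes higher. Of the 10 granulosa markers 1 was lower in Aged than in Control under that rule, and all 10 fitted changes were negative, with a median of -0.87. In Aged+CF vs Aged 7 of the 10 were positive, with a median of 0.22. The granulosa sums of these groups overlapped, at 3375 to 3967 CPM in Aged and 2565 to 4435 CPM in Aged+CF. Other marker sums were higher in Aged. The summed level of 6 theca and luteal markers was 6182 to 10721 CPM in Control, 14756 to 31171 CPM in Aged and 12416 to 16887 CPM in Aged+CF. The median log2 fold change over the list in Aged vs Control was 1.21. There 4 of the 6 rose at the adjusted p with the fold limit, against 11.1% of all genes in either direction. Of the others 1 was lower at the unadjusted p with that limit, and its Aged ovaries all lay below Control. The summed level of 10 immune markers was 72.7 to 77.4 CPM in Control, 109.9 to 414 CPM in Aged and 111 to 124 CPM in Aged+CF, and 5 of the 9 tested rose, with a median of 2.29. In both sums every Aged and Aged+CF ovary lay above every Control ovary. Under the same rule 0 markers of these lists passed in Aged+CF vs Aged, with medians of -0.92 and -1.36. There 5 of the 6 and 8 of the 9 fitted changes were negative. Figla, Mos and Oog1 were at 0 in some ovaries, and no oocyte marker was at 0 in all of them. The part of any of these cells in the levels of the telomere genes was not tested.

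To compare the genes with each other, CPM were divided by the exonic length of each gene. In Control the order was Ctc1 (11.9 ± 1.31 CPM per kb, SD, n = 4), Dkc1 (10.5 ± 1.11), Terf2 (10.3 ± 0.22), Terf2ip (8.82 ± 0.29), Acd (8.31 ± 0.43), Tinf2 (6.63 ± 0.60), Terf1 (3.74 ± 0.26), Pot1a (3.34 ± 0.16), Pot1b (2.73 ± 0.69) and Tert (2.28 ± 0.38). Neighbours in this order overlapped between ovaries except Terf2 and Terf2ip, Acd and Tinf2, and Tinf2 and Terf1. The places of Acd and Tinf2 carry the uncertainty of their shared exons. The telomerase subunits thus stood far apart, with Dkc1 near the top and Tert at the bottom. In Aged, Terf2ip came first at 9.72 ± 0.53 CPM per kb (SD, n = 3), Ctc1 was in place 4 at 8.02 ± 0.54, and Tert remained last at 1.52 ± 0.18. In Aged+CF, Dkc1 came first at 9.74 ± 0.25, Ctc1 was in place 3 at 9.65 ± 0.78, and Pot1b was last at 2.33 ± 1.02, overlapping Tert at 2.40 ± 0.50. The leading 4 genes overlapped their neighbours in both groups of older ovaries. The deposited FPKM would set another order, since the length behind them counts overlapping exons of different transcripts more than once: it was 1.12 times the exonic length for Pot1b and 2.57 times for Tinf2, and Tinf2 was in place 8 by FPKM but in place 6 per exonic length.

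**Figure D4:**
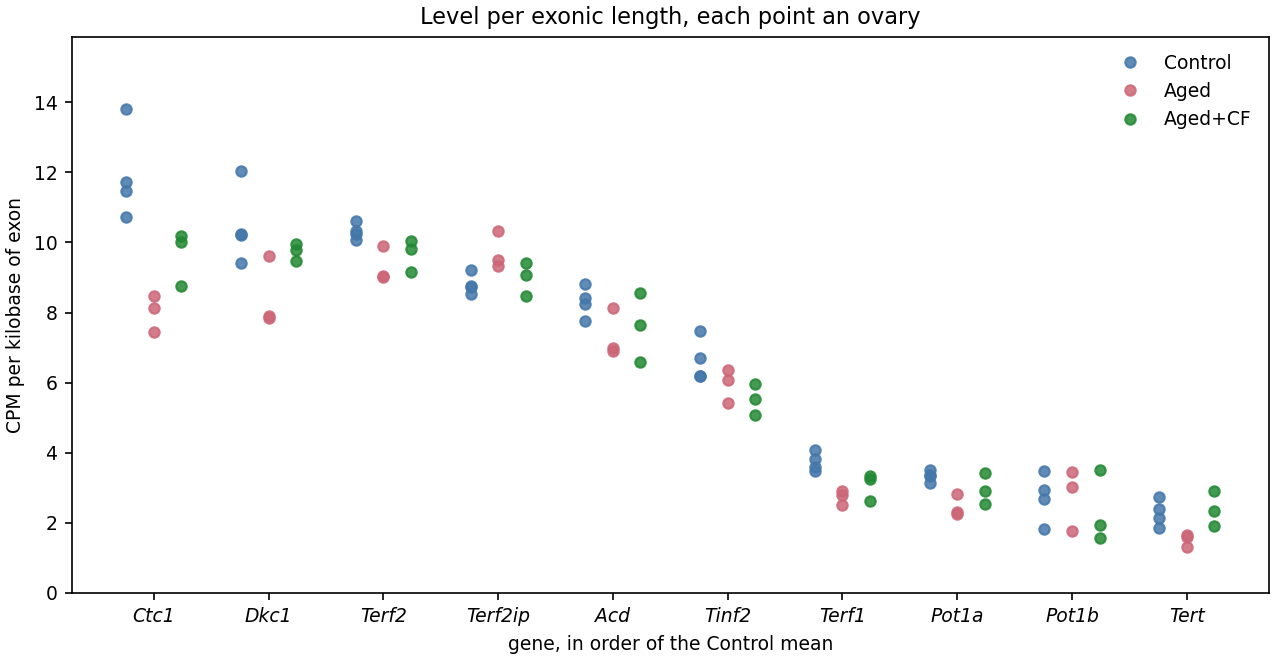
CPM per kilobase of exon for each gene and ovary on a linear axis from 0, genes in order of the Control mean, points coloured by group. Ctc1, Dkc1 and Terf2 lead in Control, Tert is last, and the Aged ovaries of Ctc1 (7.43 to 8.49) lie below those of Terf2ip (9.33 to 10.3).

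The genes most like Tert over the 10 ovaries, by Pearson r of log2 CPM among genes of at least 1 CPM on average, were Kank2 (0.93), Acbd3 (0.93) and Pcsk5 (0.93). Pcsk5, a proprotein convertase, was at 111.6, 96.1, 98.6 and 122 CPM in Control, 76.2, 59.5 and 75.6 CPM in Aged and 93.3, 102 and 118 CPM in Aged+CF. Those most like Ctc1 were Kctd5 (0.97), Cep89 (0.97), a centrosomal protein, and Plekhh1 (0.97). Kctd5 lay at 40.0 to 42.6 CPM in Control, 30.99 to 33.8 CPM in Aged and 33.9 to 37.7 CPM in Aged+CF. For Pot1b, chosen after its values were seen, they were Odf2l (0.93), Gm11739 (0.91) and Gm26532 (0.90). Gm26532 was at 4.79, 4.86, 3.35 and 0.424 CPM in Control, at 4.95, 0.494 and 5.90 CPM in Aged and at 4.64, 0.402 and 3.09 CPM in Aged+CF. It was thus low in Control ovary 34, Aged ovary 33 and Aged+CF ovary 32, which were also the lowest ovaries for Pot1b in their groups. These correlations describe 10 ovaries that share the group differences, and they were picked as the highest among all genes tested.

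Outside the 10 genes, 45 of 48 listed telomere genes passed the filter, and the remaining 3 were Terc, Terb2 and Majin. In Aged vs Control 9 of the 45 (20.0%) were called at the adjusted p with the fold limit, all lower, against 6.06% of all genes lower. Their median log2 fold change was -0.18, and 38 of 45 were negative. Among the partners of Ctc1, the polymerase alpha subunit Pola1 was at 25.0, 31.98, 24.7 and 27.5 CPM in Control, 14.0, 15.5 and 15.8 CPM in Aged and 20.8, 18.6 and 24.4 CPM in Aged+CF, lower in Aged by a log2 fold change of -0.85 ± 0.14 (adjusted p of 0.0070). The primase subunit Prim1 was lower by -1.05 ± 0.20 (adjusted p of 0.012). Of the other subunits of CST, singled out after their values were seen, Stn1 had -0.30 ± 0.19 and Ten1 had 0.31 ± 0.20, with adjusted p of 0.33 for each.

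Of 19 genes of telomere replication and processing 4 fell in Aged vs Control under the same rule, against 6.06% of all genes lower. Rif1, which restrains replication timing and end processing, was lower by -0.59 ± 0.11, Tnks, the ADP-ribosyltransferase tankyrase, by -0.64 ± 0.12, the helicase Blm by -1.11 ± 0.27, and Xrcc5, a Ku subunit that was named beyond the rule to complete the count, by -0.62 ± 0.18. Tnks was the most abundant of these, at 254, 224, 237 and 243 CPM in Control, 186, 142 and 132 CPM in Aged and 233, 207 and 233 CPM in Aged+CF. Its Aged ovaries lay below both other groups, which overlapped. Rif1 lay just past the fold limit and was called with it in 7 of 16 alternatives. Of 15 genes of the telomerase particle 1 fell, Gar1, a protein of the box H/ACA particle that Dkc1 belongs to, by -0.85 ± 0.21, with an adjusted p of 0.028. That is 6.67% of the 15, close to the 6.06% of all genes called lower. The adjusted p of Gar1 was at or above 0.05 in 5 of 10 fits that left out single ovaries, which gave 0.0100 to 0.094. For Xrcc5 it was so in 7 of these 10, with values from 0.017 to 0.14, and for Blm in 2, without Control ovary 32 or 34, with values from 0.017 to 0.063. Of 3 chromatin genes 0 were called at either p with the fold limit. Without that limit 1 passed the unadjusted p of edgeR, lower, against 15.9% of all genes lower.

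Of 4 tested genes of meiotic telomere attachment 2 fell at the adjusted p with the fold limit, against 6.06% of all genes lower. Terb1, which ties meiotic telomeres to the nuclear envelope, was at 0.642, 1.25, 0.609 and 1.06 CPM in Control, 0.119, 0.141 and 0.165 CPM in Aged and 0.344, 0.976 and 0.891 CPM in Aged+CF. In counts these are 63 over the Control ovaries, 7 over the Aged and 42 over the Aged+CF ovaries, a ratio of Control to Aged of 6.15 per library size with a 95% interval of 2.82 to 15.9 that covers counting error only. With 7 counts over the Aged ovaries, Terb1 passed the filter on low counts only through the groups where it was higher. Its call is therefore no separate support for a lower level in Aged. Ccdc155, also called Kash5, which links meiotic telomeres to dynein, was lower by -1.92 ± 0.53, with an adjusted p of 0.038. Leaving out single ovaries gave adjusted p of Ccdc155 from 0.045 to 0.093, at or above 0.05 in 7 of 10 such fits. Both lay beside oocyte marker sums that were 564 to 754 CPM in Control and 71.0 to 192 CPM in Aged, and the part of oocytes in them was not tested. Without Aged ovary 34 the count of the 45 genes called was 5, and without Control ovary 32 or 34 it was 5 and 4.

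Between Aged+CF and Aged 0 of the 45 were called at the adjusted p with the fold limit by edgeR and 0 by DESeq2, which gave an adjusted p to 42 of them, and Terb1 was the 1 gene called at the unadjusted p with the fold limit, by 2.32 ± 0.54 (adjusted p of 0.16), against 3.91% of all genes higher. Its ratio of Aged+CF to Aged was 5.24, with a 95% counting interval of 2.33 to 13.8. Terb1 passed the filter on low counts only through the groups where it was higher than in Aged. This call is therefore no separate support for a difference. Without the fold limit 10 of the 45 passed the unadjusted p, all higher, against 8.06% of all genes higher. Of the genes named above, Tnks had 0.55 ± 0.13, Rif1 0.41 ± 0.11 and Pola1 0.49 ± 0.15, with adjusted p from 0.16 to 0.18 by edgeR. DESeq2 gave them adjusted p of 0.0085, 0.028 and 0.044 with changes of 0.54, 0.40 and 0.49, under the fold limit. Without that limit DESeq2 passed 6 of the 42, all higher, against 2.55% of all genes higher, and the remaining 3 were Atm, Rtel1 and Sun1. In Aged+CF vs Control 0 of the 45 were called at the adjusted p and 3 at the unadjusted p with the fold limit, Gar1 (-0.65 ± 0.21), Prim1 (-0.59 ± 0.20) and Ccdc155 (-1.11 ± 0.49), all lower, against 4.36% of all genes lower. DESeq2 called 0 at the adjusted p there.

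**Figure D5:**
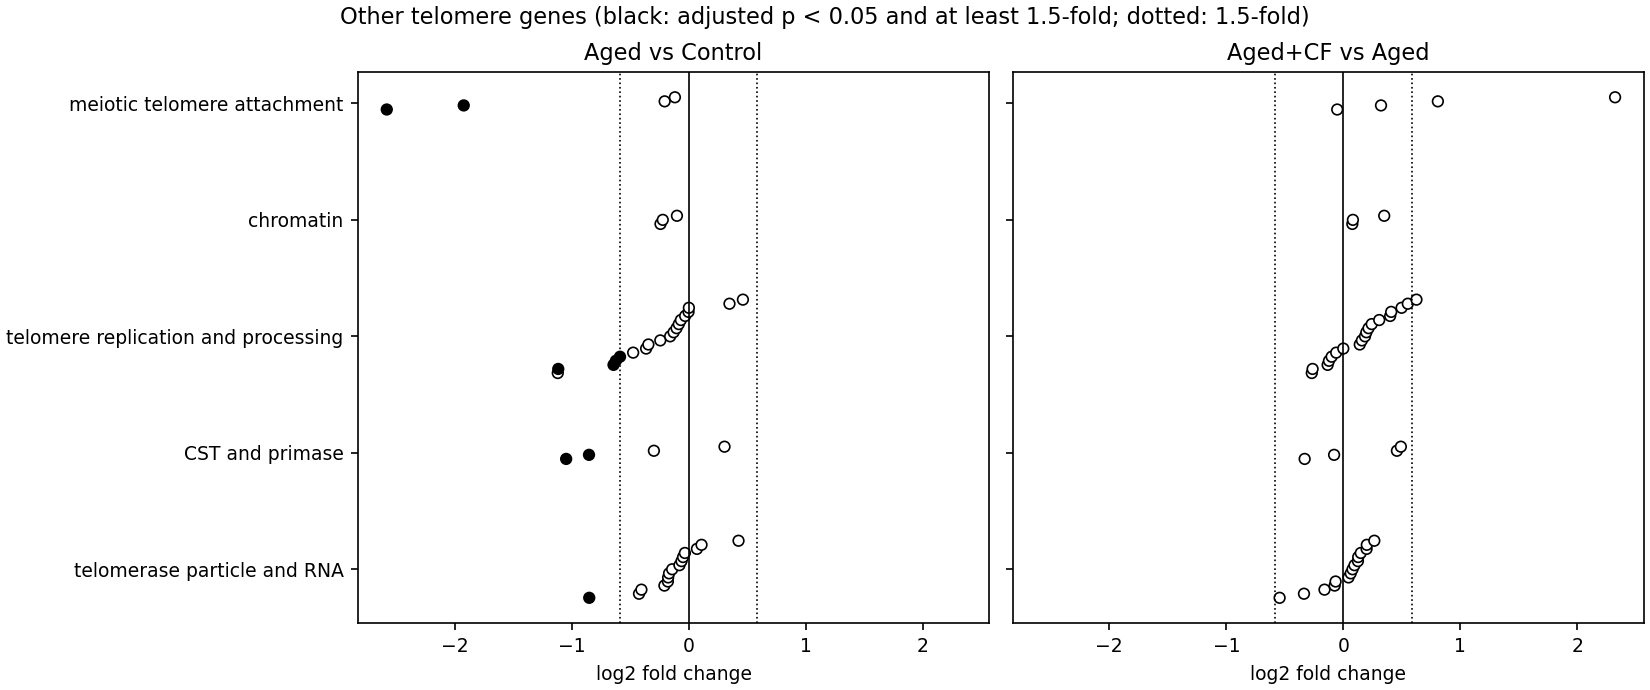
Fitted log2 fold change of 45 other telomere genes by role, each point a gene, for Aged vs Control on the left and Aged+CF vs Aged on the right; black points passed an adjusted p under 0.05 with at least 1.5-fold change, and dotted lines mark 1.5-fold. The 9 black points all lie on the lower side of Aged vs Control, and Terb1 is the point at 2.32 in Aged+CF vs Aged.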

How the data were processed

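RNA from 10 mouse ovaries was sequenced; the submitters' processing notes name TopHat, Cufflinks 2.1.1 and GRCm38.p4. Tool roles, strand setting and gene counter are not given in the sources used here. The deposited table holds raw counts per gene and FPKM that the authors made from them. The FPKM equalled the count over length and library total within 0.1% in all 36618 genes with counts, and that length was the sum of all distinct annotated exons in 97.4% of 21005 genes compared. Exonic length here is that of merged exons in GENCODE M21, where 55141 IDs were found.

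Counts of all 10 ovaries were scaled by TMM and fitted together, with a mean per group, in edgeR 4.0 (R 4.3) after a filter on low counts that kept 18956 genes. The quasi-likelihood F test was adjusted by Benjamini-Hochberg over all of them, and genes were called at 1.5-fold and p under 0.05, adjusted or unadjusted. The fit was tested on simulated data. Ratios used an exact permutation test (SciPy 1.17). Alternatives were DESeq2 1.42, its size factors, scaling by totals, no filter, only the compared groups, a replicate block and leaving out each ovary.

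The genes and lists were chosen with earlier results of these data known. The rule without the fold limit, the motifs and the likeness to Pot1b were added after the data were seen. All 10 genes are named, and of the other telomere genes at most 8 called at the adjusted p in Aged vs Control and at most 6 at the unadjusted p in Aged+CF vs Aged, by smallest p, with the 3 genes most like Tert and most like the gene of smallest p. Each of the 10 had at least 107 counts in every library.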

Additional observations from a re-analysis of the deposited data

How the results depend on the processing

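Under total counts without TMM scaling the median of all genes in Aged vs Control shifted to -0.13, and 2 members were called with the fold limit at either p, Tert (-0.70) and Ctc1 (-0.70); relative to that median they stood at -0.57 and -0.58, as with TMM. Members that passed the adjusted p alone in Aged vs Control were 2 by edgeR with TMM, against 15.4% of all genes. DESeq2 passed 4, against 22.6%. There were 5 with total counts, 1 without the filter, 1 with only the compared groups and 0 with the replicate block. For total counts, with or without the fold limit, no share of all genes is given here for this comparison. The same holds for the other 3 of these settings without the fold limit, so their counts describe the members alone. Leaving out single ovaries gave 1 to 3 members at the adjusted p alone and 0 to 1 with the fold limit. It gave 0 to 2 members at the unadjusted p with that limit, and 4 to 9 of the other telomere genes. In Aged+CF vs Aged the members called at the unadjusted p with the fold limit were 0 to 1. Calls over all genes at the adjusted p ranged from 1081 to 3112 for Aged vs Control, from 1 to 556 (556 without Aged ovary 34) for Aged+CF vs Aged, and from 7 to 348 for Aged+CF vs Control. DESeq2 gave 442 and 528 in the latter comparisons, only the compared groups 2 and 487, and Aged+CF vs Aged gave 2 without the filter and 2 with total counts.

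Replicate numbers are shared by different animals. Deviations of ovaries of the same number correlated at -0.18 to 0.15 across genes, so the numbers were not taken as a pairing. Over 16 alternatives the adjusted p in Aged vs Control stayed under 0.05 in 15 for Ctc1 and in 4 for Terf1, and came under it in 4 for Pot1a, 2 for Tert and 2 for Dkc1. The replicate block left 80, 0 and 9 genes in the 3 comparisons and 0 of the other telomere genes in Aged vs Control, with an adjusted p of 0.087 for Ctc1.

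Some values near 0 changed sign. In Aged vs Control this was Pot1b, at -0.090 with total counts and from -0.14 to 0.28 when single ovaries were left out. Between Aged+CF and Aged it was Acd, at -0.00088 with the replicate block and from -0.045 to 0.14 without single ovaries. Between Aged+CF and Control these were Terf2ip, at -0.011 with total counts, and, without single ovaries, Tert from -0.064 to 0.23, Terf2ip from -0.0063 to 0.090, Terb1 from -0.50 to 0.097, and the log2 ratio of Pot1b to Pot1a from -0.31 to 0.045. The cause of these shifts was not tested. Depth limited Terc, with 1 to 6 counts a library, and Terb1, with 7 counts over the Aged ovaries.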
